A study of Mus musculus with 12 samples.

Results

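Fatty acid synthesis in the liver of fed mice was examined through 10 genes, 7 enzymes (Acly, Me1, Acaca, Acacb, Fasn, Elovl6 and Scd1) and 3 regulators (Srebf1, Mlxipl and Thrsp), with and without Gcg, the gene that encodes the precursor of glucagon. The genes were given by name and found by symbol, and all 10 were present among the 24475 genes of the expression table. Polyadenylated RNA from flash-frozen whole liver was sequenced in 12 libraries, 6 from wild-type mice (WT, numbered 1 to 6) and 6 from Gcg-/- mice (Gcg KO, numbered 7 to 12). Mice of both groups had been fed. Levels are in RPKM, reads scaled to gene length and library depth, at an estimated 10300000 to 15000000 reads per library. The labels give no strain, age, sex, litter or batch, and do not say that each library came from a separate animal, so a p-value here reflects no more than the spread among libraries, which may be technical. Glucagon is made by pancreatic alpha cells and acts on the liver, and the same precursor gives glucagon-like peptides in the gut, which a deletion of the gene removes as well. Gcg was listed at 0 RPKM in all 12 libraries, WT included, and so did not check the genotype labels.

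De novo lipogenesis turns surplus carbohydrate into fatty acids. Citrate leaves the mitochondrion and is split by ATP citrate lyase to acetyl-CoA in the cytosol, acetyl-CoA carboxylase makes malonyl-CoA from it, and fatty acid synthase assembles palmitate with electrons from NADPH. Palmitate is then lengthened and desaturated before it is built into triglyceride. In the liver, insulin drives the pathway through SREBP-1c and glucose drives it through ChREBP, while glucagon, through cyclic AMP, is known to restrain it.

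Among the 10 genes, 2 were higher in Gcg KO livers and 0 were lower when tested in limma on log2(RPKM + 0.5), with p adjusted over all 11347 tested genes. Me1, malic enzyme, which makes NADPH, rose 2.43-fold, and Acaca, the cytosolic acetyl-CoA carboxylase, rose 1.36-fold. The other 8 did not pass the threshold, an adjusted p of 0.05. Over all tested genes, 3.87% passed it, 1.95% as higher and 1.92% as lower, so 2 of 10 stood beside a background of about 2 genes in 100 that were higher. The log2 fold change was positive for 8 of the 10 genes and negative for 2 (Acly and Srebf1), with a median of 0.32, against 54.3% positive and a median of 0.014 over all tested genes. The 10 genes were chosen with earlier results of these data known, and they partly vary together within groups. Their counts and median beside the background are thus a description and no test of the list. At an unadjusted p below 0.05 in limma there were 6 of the 10 genes, 5 higher and Acly lower, and 15.7% of all tested genes. The exact permutation test, adjusted over all genes, called 0 of the 10 and 0 of all genes. Its smallest p, 0.00216, became 0.07 after adjustment. No gene could thus pass, however large its difference, and these counts are no separate negative result. In bulk liver, fewer cells of a type and less RNA per cell cannot be told apart. For 0 of the 10 did the 6 Gcg KO libraries lie wholly outside the WT range, which was so for 3.09% of all tested genes.

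Promoter stretches of 5 of the genes are shown because the enzymes of the pathway are textbook targets of SREBP-1c, ChREBP, NF-Y and Sp1, whose binding sequences can be looked for in these letters. Each is the 120 bases directly before a start site in RefSeq (mouse build GRCm38.p6), read 5′ to 3′ on the strand of the gene. Capitals mark matches, on either strand, to the E-box CACGTG, the CCAAT box CCAAT and the GC box GGGCGG. Me1 is shown as the gene with the largest rise, Fasn and Acly as a synthase and lyase with opposite signs, and Mlxipl and Thrsp as regulators.
Me1, chr9:86695915-86696034, minus strand: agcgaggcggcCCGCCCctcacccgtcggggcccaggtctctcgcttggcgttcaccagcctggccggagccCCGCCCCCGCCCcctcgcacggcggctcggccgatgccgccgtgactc
Fasn, chr11:120824548-120824667, minus strand: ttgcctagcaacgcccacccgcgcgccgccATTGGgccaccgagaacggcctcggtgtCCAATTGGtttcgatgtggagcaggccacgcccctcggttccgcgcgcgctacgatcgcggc
Acly, chr11:100528001-100528120, minus strand: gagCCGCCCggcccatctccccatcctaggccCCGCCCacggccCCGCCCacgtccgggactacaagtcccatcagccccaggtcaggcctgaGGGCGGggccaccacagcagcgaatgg
Mlxipl, chr5:135089770-135089889, plus strand: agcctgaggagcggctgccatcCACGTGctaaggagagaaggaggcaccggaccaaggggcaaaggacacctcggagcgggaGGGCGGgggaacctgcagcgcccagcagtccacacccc
Thrsp, chr7:97417551-97417670, minus strand: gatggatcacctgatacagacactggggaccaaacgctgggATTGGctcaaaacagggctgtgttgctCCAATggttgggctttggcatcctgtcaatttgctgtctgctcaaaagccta

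The Fasn stretch holds CCAAT on 1 strand and its reverse on the other 62 and 59 bases before the start, which overlap, and another 90 bases before it. The Fasn window lies inside the annotated span of the gene, whose first base is farther upstream. In Acly 4 GC boxes stand within 117 bases of the start, and in Me1 3 stand within 109 bases, of which 2 run into each other. Mlxipl, the gene for ChREBP, holds the E-box 98 bases before its start, and Thrsp holds CCAAT in either orientation at 79 and 52 bases.
Over the 250 bases before each start, 13 RefSeq windows of 9 of the genes were searched on both strands, along with 32851 windows of all genes. The E-box was in 1 of the 13 (6.02% of all windows), CCAAT in 7 (33.8%), the GC box in 5 (32.7%), the sterol element core CACCCCAC in 0 (2.58%) and TATAAA in 1, that of Acacb (12.4%). Over 11014 windows of tested genes alone the shares were 8.38%, 35.3%, 56.4%, 2.76% and 6.96%, so 5 of 13 with a GC box lies above the share of all windows and below that of tested genes. These are matches of letters and not measured sites, and no match says only that the letters are not in this window. Acaca and Acacb have windows that lie well inside the genes, so their upstream promoters were not searched. All 3 windows of Srebf1, 1 window each of Me1 and Mlxipl, and that of Fasn also lie inside the annotated spans of their genes. These windows are included in the counts above.

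**Figure D1:**
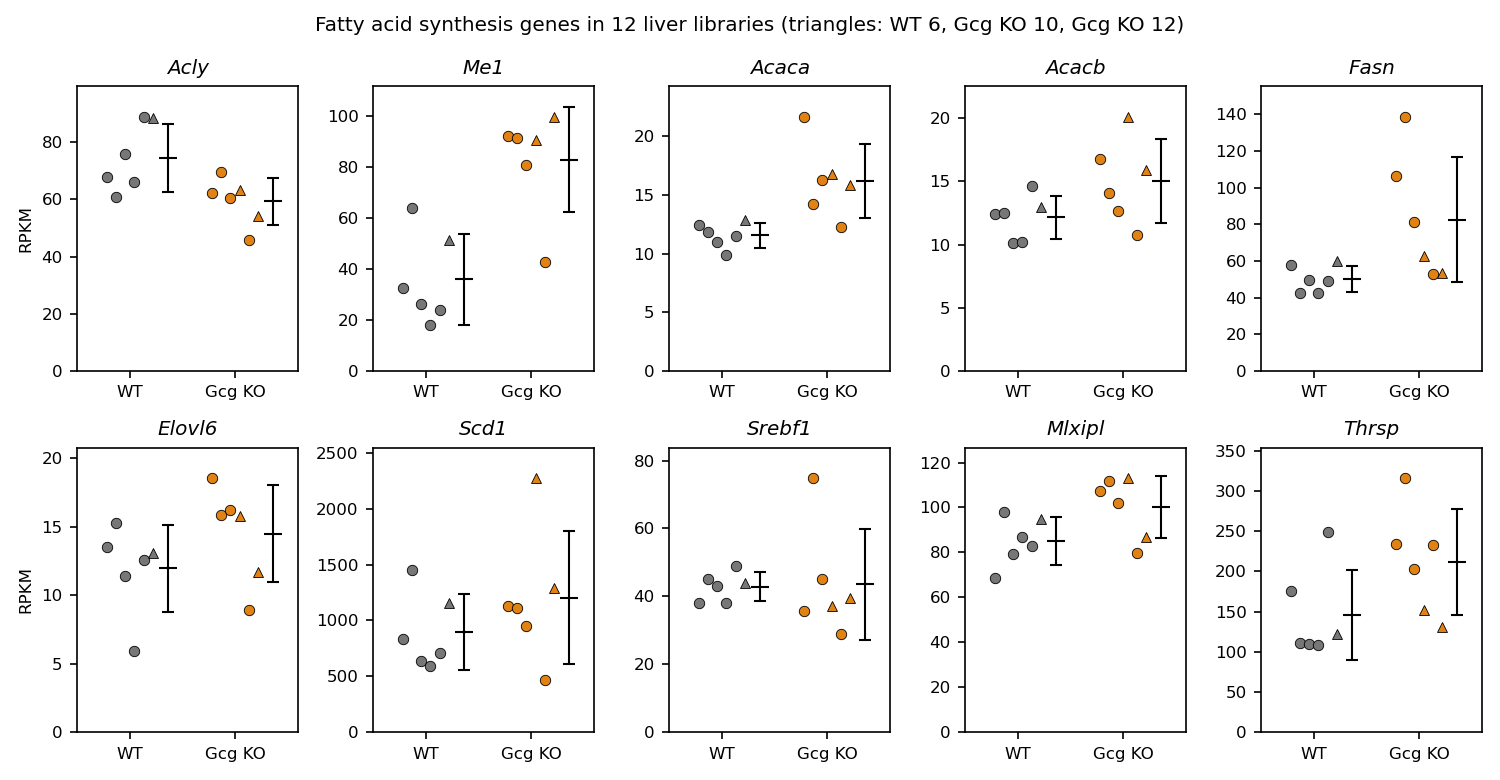
RPKM (vertical axes, each from 0) of the 10 genes in the 12 libraries, grey for WT and orange for Gcg KO, in library order from left to right, with the mean and SD beside each group and triangles for WT 6, Gcg KO 10 and Gcg KO 12. Me1 lies between 80.9 and 99.96 RPKM in 5 Gcg KO libraries and at 42.6 in Gcg KO 11, against 17.9 to 64.1 in WT.

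Of the suppliers of NADPH and acetyl-CoA, Me1 rose and Acly did not pass the threshold. Me1 (Entrez 17436, chromosome 9, 86581363 to 86695914, as all gene positions from RefSeq on GRCm38) had 17.9 RPKM in the lowest WT library, a median of 29.3 and 64.1 in the highest, and 42.6, 91.1 and 99.96 RPKM in Gcg KO. In 5 of the 6 Gcg KO libraries Me1 was above every WT library, and Gcg KO 11 lay within the WT range, below WT 2 and WT 6. Me1 averaged 35.99 ± 17.9 and 83.0 ± 20.7 RPKM (SD, n = 6 per group), so its log2 fold change was 1.28 ± 0.29 (SE; 95% interval 0.65 to 1.92; adjusted p = 0.0269). An exact permutation test of Me1 alone gave p = 0.00649. The size of the Me1 difference stayed between 1.11 and 1.48 in all 22 alternative settings, but its adjusted p was above 0.05 (0.051 to 0.0664) when WT 1, WT 3, WT 4, WT 5, Gcg KO 7, Gcg KO 8, Gcg KO 9, Gcg KO 10 or Gcg KO 12 was left out. Without WT 6, Gcg KO 10 and Gcg KO 12 together it was 1.29 with an adjusted p of 0.0837.

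Acly (Entrez 104112, chromosome 11, 100476352 to 100528000), the citrate lyase, had 61.0, 71.8 and 89.0 RPKM as lowest, median and highest in WT and 45.7, 61.5 and 69.6 RPKM in Gcg KO. Its 6 Gcg KO values all lay below the WT median, and 3 of them below every WT library. The log2 fold change of Acly was -0.33 ± 0.12 (95% interval -0.58 to -0.08), which did not pass adjustment (adjusted p = 0.165; exact permutation p of this gene alone 0.0281). Of the 7 enzymes, Acly was the one with a negative difference.
The other genes of this supply step were given by a list of 11 (the citrate carrier Slc25a1, acetyl-CoA synthetase Acss2, the pentose phosphate enzymes and others), of which 0 were higher, 0 lower and 11 did not pass in limma (2 higher and 1 lower at an unadjusted p below 0.05), with a median log2 fold change of 0.04. Slc25a1 had 103 ± 8.37 RPKM in WT livers and 106 ± 7.81 in Gcg KO. Idh1 and Pgd, which also make NADPH in the cytosol, had log2 fold changes of 0.03 ± 0.09 and -0.01 ± 0.08. The 95% intervals of Idh1 (-0.17 to 0.22) and Pgd (-0.18 to 0.17) lie below the 0.65 that bounds Me1.

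Malonyl-CoA and palmitate are made by Acaca, Acacb and Fasn. Acaca (Entrez 107476, chromosome 11, 84129635 to 84401651) had 9.88, 11.7 and 12.9 RPKM as lowest, median and highest in WT and 12.3, 16.1 and 21.7 RPKM in Gcg KO. Of the 6 Gcg KO libraries 5 were above every WT library, and Gcg KO 11 was within the WT range. The means of 11.6 ± 1.07 and 16.2 ± 3.15 RPKM gave a log2 fold change of 0.45 ± 0.11 (95% interval 0.21 to 0.69; adjusted p = 0.0424; exact permutation p of this gene alone 0.00649). Leaving out any single library other than WT 6 or Gcg KO 11, that is WT 1, 2, 3, 4 or 5 or Gcg KO 7, 8, 9, 10 or 12, took the adjusted p of Acaca to between 0.0536 and 0.0932, with the difference between 0.36 and 0.48 in those fits. Without WT 6, Gcg KO 10 and Gcg KO 12 it was 0.46 (adjusted p = 0.128). Acaca overlaps Tada2a and Gm11437 in the annotation, and these reached 2.89 and 4.08 RPKM. The library kit kept strand, but whether the counting used it is not given.

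Acacb (Entrez 100705, chromosome 5, 114146321 to 114250761), the carboxylase of the outer mitochondrial membrane whose malonyl-CoA limits fatty acid import, ran from 10.1 over 12.5 to 14.6 RPKM in WT livers and from 10.7 over 15.0 to 20.1 RPKM in Gcg KO. The groups overlapped, with 3 Gcg KO libraries above the WT range, and the log2 fold change of 0.28 ± 0.14 did not pass (95% interval -0.01 to 0.58; adjusted p = 0.342), and was 0.17 without WT 6, Gcg KO 10 and Gcg KO 12. The log2 ratio of Acacb to Acaca, taken within each library, was 0.06 ± 0.15 in WT and -0.11 ± 0.24 in Gcg KO. That difference of -0.17 did not pass (exact permutation test over 924 arrangements, p = 0.169, adjusted over 4 ratios 0.506; -0.30 without those 3 libraries, adjusted 0.127), so the 2 carboxylases were not shown to differ in response.

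Fasn (Entrez 14104, chromosome 11, 120805958 to 120825166), fatty acid synthase, had 42.4, 49.4 and 59.8 RPKM as lowest, median and highest in WT and 52.7, 72.0 and 139 RPKM in Gcg KO. Gcg KO 7, 8, 9 and 10 were above every WT library, at 106, 139, 81.4 and 62.6 RPKM, whereas Gcg KO 11 and 12 were within the WT range at 52.7 and 53.6 RPKM. The coefficient of variation of Fasn was 14.6% in WT and 41.4% in Gcg KO. With that spread, the log2 fold change of 0.63 ± 0.22 (95% interval 0.17 to 1.095) had an adjusted p of 0.147 and an exact permutation p, for this gene alone, of 0.0238. In 1 of the 22 alternatives, limma with a weight for each library, Fasn passed at 0.73 (adjusted p = 0.048), and without WT 6, Gcg KO 10 and Gcg KO 12 the difference was 0.89 and did not.

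**Figure D2:**
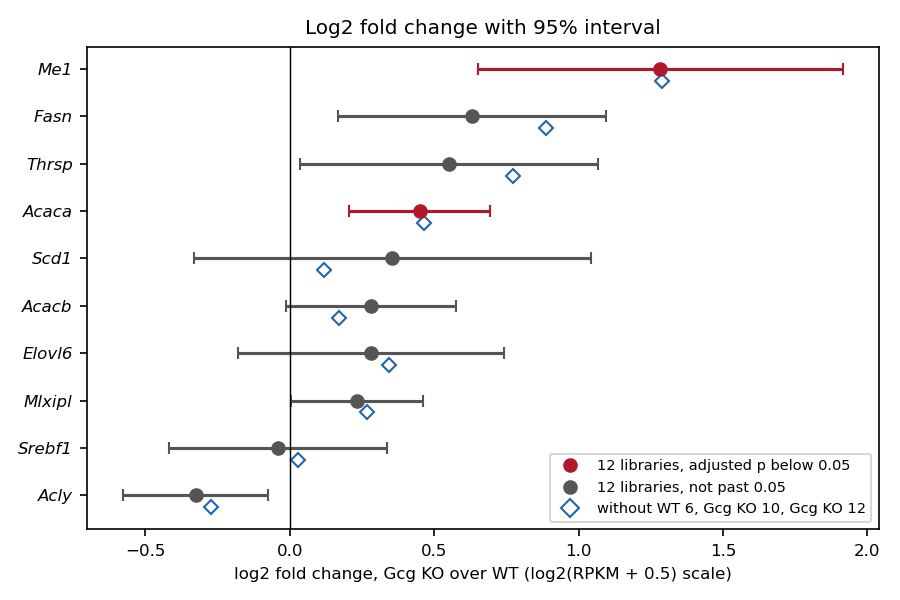
Log2 fold change (horizontal axis, Gcg KO over WT, log2(RPKM + 0.5) scale) of the 10 genes with the 95% interval of the fit (bars), red where the adjusted p was below 0.05, and diamonds for the fit without WT 6, Gcg KO 10 and Gcg KO 12. The intervals of Me1, Fasn, Thrsp, Acaca and Mlxipl lie above 0 and that of Acly below it, and the diamonds differ most from the filled points for Fasn (0.89 against 0.63) and Scd1 (0.12 against 0.35).

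Neither enzyme that finishes the fatty acid passed the threshold. Elovl6 (Entrez 170439, chromosome 3, 129532386 to 129638495), which lengthens palmitate to stearate, had 5.97, 12.8 and 15.2 RPKM as lowest, median and highest in WT and 8.91, 15.8 and 18.6 RPKM in Gcg KO. Gcg KO 7, 8, 9 and 10 were above the WT range, while Gcg KO 11 and 12 were below the WT median. Its log2 fold change was 0.28 ± 0.21 (95% interval -0.18 to 0.74; adjusted p = 0.598), and 0.10 without WT 4. At about 433 estimated reads, Elovl6 in WT 4 was the value of the 10 genes that rested on the fewest reads.

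Scd1 (Entrez 20249, chromosome 19, 44394450 to 44407709), the desaturase that makes oleate, was the most abundant of the 10 genes in every library of both groups. It had 590, 771 and 1449 RPKM as lowest, median and highest in WT and 472, 1120 and 2273 RPKM in Gcg KO, so the lowest and the highest of the 12 values were both in Gcg KO (Gcg KO 11 and Gcg KO 10). The log2 fold change was 0.35 ± 0.32 (95% interval -0.33 to 1.04; adjusted p = 0.673), and 0.12 without WT 6, Gcg KO 10 and Gcg KO 12. Leaving out Gcg KO 10 alone gave 0.14, and leaving out Gcg KO 11 alone gave 0.595. Scd1 has close copies beside it in the genome, and how reads shared among them were counted is not given, so its level is uncertain. Scd2, the copy that predominates in brain, had 3.73 ± 0.36 RPKM in WT livers and 4.12 ± 0.79 in Gcg KO, and the log2 ratio of Scd1 to Scd2 was 7.65 ± 0.62 and 7.90 ± 0.81 (difference 0.24, exact permutation p = 0.561, adjusted 0.561). With single libraries left out that difference lay between 0.05 (without Gcg KO 10) and 0.52 (without Gcg KO 11).

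The regulators did not pass the threshold either. Srebf1 (Entrez 20787, chromosome 11, 60199084 to 60224186) encodes SREBP-1, the membrane-bound factor released by cleavage that carries the insulin signal. It had 38.0, 43.5 and 49.0 RPKM as lowest, median and highest in WT and 28.9, 38.3 and 74.8 RPKM in Gcg KO. Of the Gcg KO libraries, Gcg KO 8 alone was above the WT range, at 74.8 RPKM, and Gcg KO 7, 10 and 11 were below it. The log2 fold change of -0.04 ± 0.18 had a 95% interval from -0.42 to 0.34 (adjusted p = 0.958), and its sign turned without Gcg KO 7 (0.003) or Gcg KO 11 (0.06), and without WT 6, Gcg KO 10 and Gcg KO 12 (0.03). The table gives 1 value for the gene, so the 1a and 1c transcripts could not be told apart, and RNA does not show how much SREBP-1 was cleaved. Rai1, which overlaps Srebf1 in the annotation, reached 2.12 RPKM, and the overlapping Mir6921 and Mir6922 reached 4.298 and 1.33 RPKM.

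Mlxipl (Entrez 58805, chromosome 5, 135089890 to 135139768) encodes ChREBP, the glucose-responsive partner of Mlx. It ran from 68.7 over 84.8 to 98.0 RPKM in WT livers and from 79.8 over 105 to 113 RPKM in Gcg KO, with 4 Gcg KO libraries above the WT range and Gcg KO 11 and 12 inside it. The log2 fold change was 0.23 ± 0.11 (95% interval 0.005 to 0.46; adjusted p = 0.304; exact permutation p of this gene alone 0.0628). Against Mlxip, the related factor MondoA (1.98 ± 0.20 RPKM in WT, 2.17 ± 0.20 in Gcg KO), the log2 ratio of Mlxipl was 5.10 ± 0.15 in WT and 5.23 ± 0.22 in Gcg KO (difference 0.13, exact permutation p = 0.253, adjusted 0.506), and the difference was 0.21 without Gcg KO 11.

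Thrsp (Entrez 21835, chromosome 7, 97412933 to 97417550) encodes Spot 14, a small nuclear and cytosolic protein induced by thyroid hormone and carbohydrate. It had 109, 117 and 248.7 RPKM as lowest, median and highest in WT and 132, 218 and 316 RPKM in Gcg KO. Every Gcg KO library was above the WT median of Thrsp, but WT 5 exceeded 5 of the 6. The log2 fold change was 0.55 ± 0.24 (95% interval 0.03 to 1.07; adjusted p = 0.276; exact permutation p of this gene alone 0.0801). The log2 ratio of Thrsp to Mid1ip1, its paralog that binds acetyl-CoA carboxylase, was 3.29 ± 0.67 in WT and 3.67 ± 0.76 in Gcg KO (difference 0.37, exact permutation p = 0.383, adjusted 0.511). With single libraries left out it lay between 0.125 (without Gcg KO 11) and 0.585 (without WT 5), and it was 0.62 without WT 6, Gcg KO 10 and Gcg KO 12.

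By level per length, the WT order of mean RPKM was Scd1, Thrsp, Mlxipl, Acly, Fasn, Srebf1, Me1, Acacb, Elovl6 and Acaca. The ranges of neighbours did not overlap between Scd1 and Thrsp, Thrsp and Mlxipl, Acly and Fasn, and Me1 and Acacb, and they did overlap for the remaining 5 neighbouring pairs. In Gcg KO the order was Scd1, Thrsp, Mlxipl, Me1, Fasn, Acly, Srebf1, Acaca, Acacb and Elovl6, where the ranges of Scd1 and Thrsp, Thrsp and Mlxipl, and Srebf1 and Acaca did not overlap. Me1 thus stood above Fasn, Acly and Srebf1 in mean level, although it exceeded Fasn in only 2 of the 6 Gcg KO libraries (Gcg KO 10 and 12).

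The 10 genes differed from library to library within a group, and partly together. WT 4 had the lowest WT value for 7 of the 10 genes and Gcg KO 11 the lowest Gcg KO value for 9, Thrsp being the exception with its lowest in Gcg KO 12. The median of the 10 log2 levels, relative to the WT mean of each gene, was -0.23 in WT 4 and -0.12 in Gcg KO 11, and between 0.37 and 0.56 in Gcg KO 7, 8, 9 and 10. Gcg KO 12 was at 0.08 and the other 5 WT libraries between -0.08 and 0.17. Without Gcg KO 11 the median log2 fold change of the 10 genes was 0.46 in place of 0.32.

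Levels of Igfbp1, Pck1 and G6pc, genes that insulin represses and fasting raises, also differed among libraries. Igfbp1, a secreted binding protein of insulin-like growth factors that insulin switches off, was highest in WT 4 and Gcg KO 11, at 675 and 738 RPKM. The lowest values of Igfbp1 were 14.2 RPKM in Gcg KO 10, 9.35 in Gcg KO 12 and 6.22 in WT 6, and these 3 libraries had stood apart from the other 9 in earlier results of these data. Pck1, the PEPCK of gluconeogenesis, was at 189, 85.3 and 504 RPKM in those 3 libraries and at 845 to 1444 in the other 9, where WT 4 had 1236 and Gcg KO 11 had 1037 and the highest was WT 5. G6pc, glucose-6-phosphatase, was at 143, 134 and 132 RPKM in those 3 and at 336 to 681 in the rest, where WT 4 had 681, WT 5 had 660 and Gcg KO 11 had 628. WT 4 and Gcg KO 11 were thus the 2 highest for Igfbp1 but not for Pck1 or G6pc. The labels call the mice of all 12 libraries fed and give no time since the last meal. The part of feeding state in the differences among the 10 genes was not tested.

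**Figure D3:**
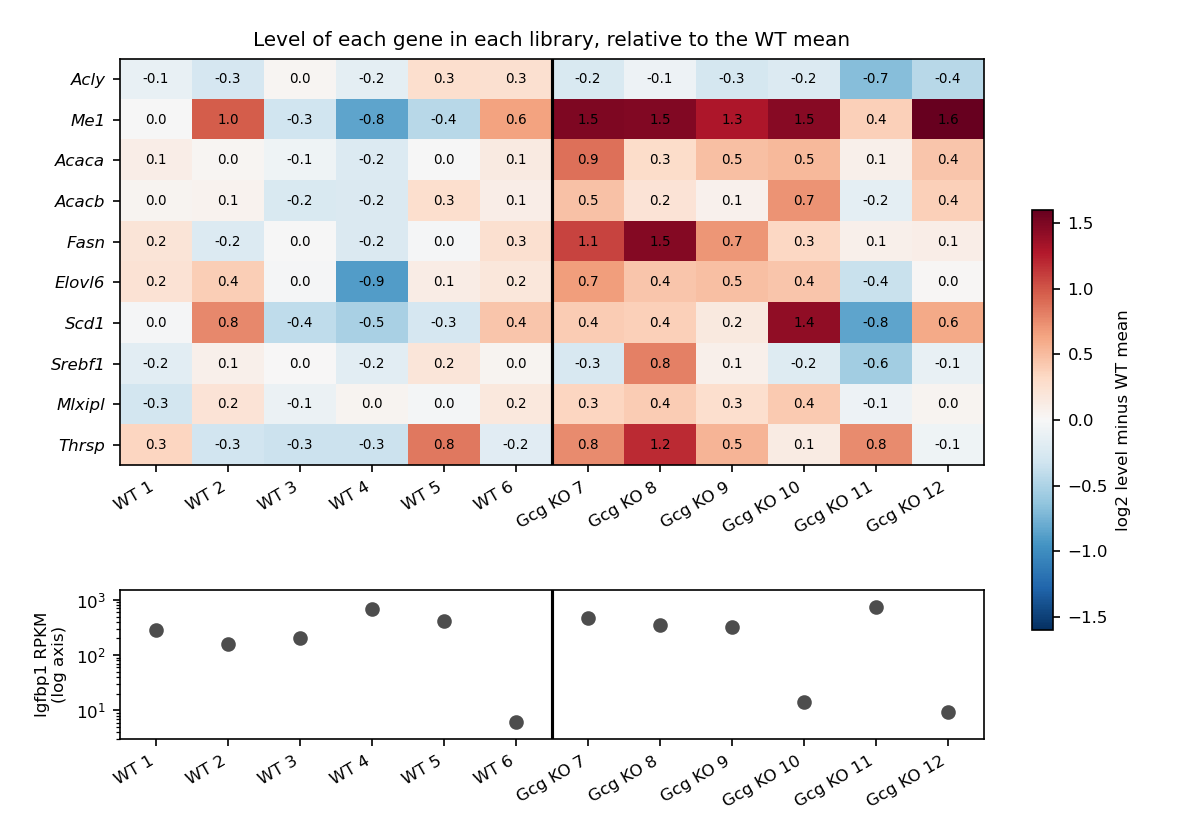
Upper panel, log2 level of each of the 10 genes in each library minus the WT mean of that gene (colour and printed value), WT to the left of the line and Gcg KO to the right, and lower panel, RPKM of Igfbp1 in the same libraries on a log axis. Gcg KO 7 to 10 are above the WT mean for most genes, Gcg KO 11 is below it for 6 of the 10, and Igfbp1 is highest in Gcg KO 11 (738 RPKM) and WT 4 (675 RPKM).

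Correlations between genes over the 12 libraries, after the mean of each group was removed, describe this shared variation. They carry no test, since the genes share libraries and depth. The 45 pairs of the 10 genes had a median Pearson r of 0.44, and 40 of the 45 were above 0 (0.51 and 41 over the 9 libraries other than WT 6, Gcg KO 10 and Gcg KO 12). Me1 and Scd1 had the highest r, 0.84, followed by Acacb and Scd1 with 0.79 and Me1 and Elovl6 with 0.75. Fasn went most with Srebf1, with r of 0.68. Gcg KO 8 had the highest Gcg KO value of both genes (138.7 and 74.85 RPKM) and weighs heavily on that r. No r was computed without Gcg KO 8 alone, so the r does not show that Fasn and Srebf1 go together in general. Thrsp had r of -0.35 to Scd1 and -0.25 to Me1 over the 12 libraries. Its r with the mean of the 10 genes was 0.28, against 0.63 to 0.86 for the other 9. Each of the 10 is part of that mean, which raises its r, so these values do not compare directly with those of other genes. Over the 9 libraries the r of Thrsp to Scd1 and Me1 was -0.001 and -0.07, and its r to Acacb went from 0.02 to 0.60. The low r of Thrsp to Acacb thus rested largely on the libraries left out. Its r to Scd1 and Me1 became less negative but stayed far below the median of 0.51 over the 9 libraries.

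Among 10763 other tested genes, the 8 whose within-group variation was most like the mean of the 10 were Zfp605, Aifm2, Tprn, Adarb1, Rnd2, Ccl25, Ppp1r14b and Ubqln4, with r of 0.86 to 0.89. Aifm2, also called FSP1, reduces coenzyme Q at membranes and had 7.43 ± 0.73 RPKM in WT livers and 6.91 ± 1.76 in Gcg KO. The 4 most opposite were Avpr1a, Hpse, Myl12a and Apoa1, with r of -0.90 to -0.89. Avpr1a, the vasopressin receptor of hepatocytes, had 12.3 ± 1.51 RPKM in WT livers and 12.5 ± 3.62 in Gcg KO, with its highest value in Gcg KO 11 (19.7 RPKM). Of these 12 genes 0 differed between genotypes in limma, at an adjusted or an unadjusted p below 0.05.

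**Figure D4:**
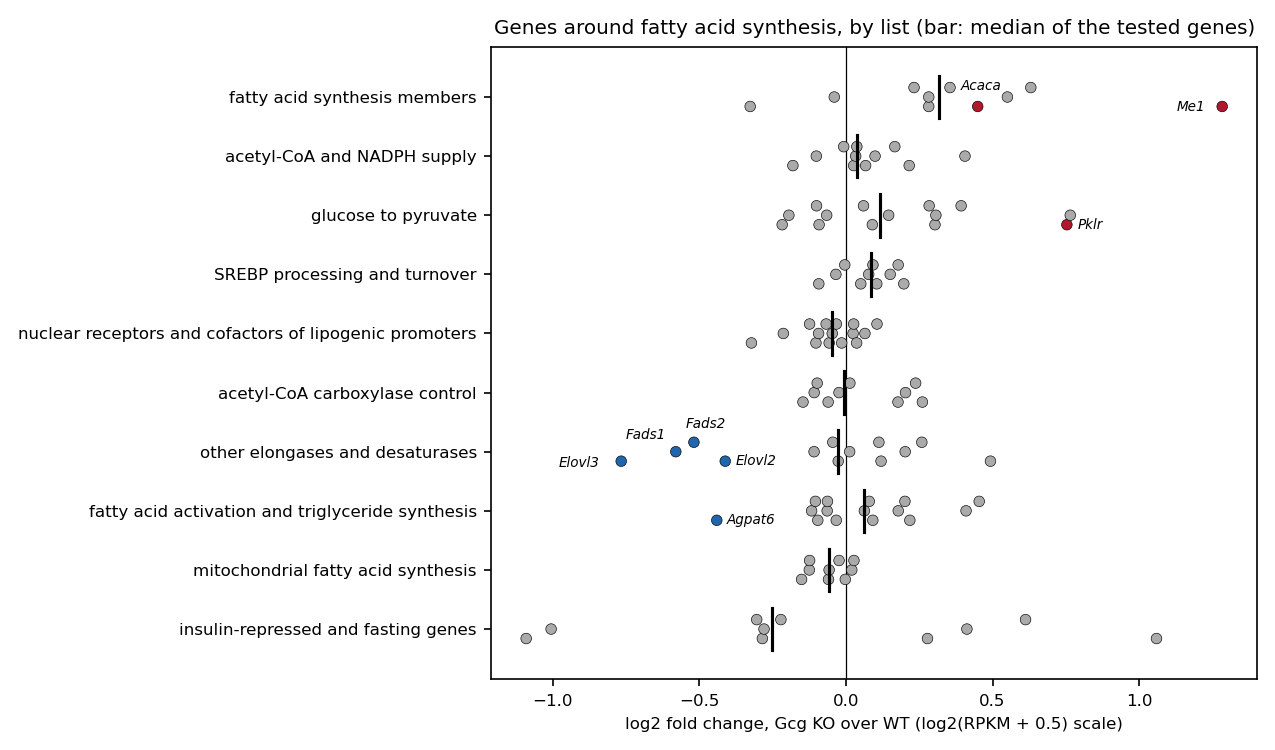
Log2 fold change (horizontal axis, Gcg KO over WT) of each tested gene of the 10 genes and of 9 lists around fatty acid synthesis, with red for genes past an adjusted p of 0.05 as higher, blue for those past it as lower, grey for the rest and a bar at the median. The 10 genes have a median of 0.32, Pklr is the only other gene in red, and 5 genes in blue belong to the elongases, desaturases and triglyceride synthesis.

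Genes that feed, process or use the same fatty acids were counted by list, each against the 1.95% and 1.92% of all tested genes that were higher and lower. The path from glucose to pyruvate had 1 of 14 higher, 0 lower and 13 that did not pass in limma (4 higher and 2 lower at an unadjusted p below 0.05). That gene was Pklr, the liver pyruvate kinase and a textbook ChREBP target, which rose from 47.0 ± 11.4 to 79.9 ± 20.7 RPKM (log2 fold change 0.75 ± 0.18, adjusted p = 0.0323). Its adjusted p lay between 0.0585 and 0.0761 when WT 2, 3, 4 or 5 or Gcg KO 7, 9, 10 or 12 was left out. Khk, the fructokinase, had 183 ± 9.80 and 225 ± 27.2 RPKM, a log2 fold change of 0.28 ± 0.08 that did not pass (adjusted p = 0.0699). Khk was picked out after its values were seen.

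Control of the pathway gave no gene past the threshold in limma. The exact permutation test called 0 genes in any list, but with a smallest adjusted p of 0.07 it could call none. SREBP processing and turnover had 0 of 10 in either direction (2 higher and 0 lower unadjusted; median log2 fold change 0.08), with Insig1, which holds SREBP in the endoplasmic reticulum, at 159 ± 18.5 and 159 ± 22.8 RPKM. The nuclear receptors and cofactors of lipogenic promoters had 0 of 15 (0 unadjusted; median -0.05), among them the liver X receptor Nr1h3 at 38.5 ± 3.14 and 37.2 ± 2.87 RPKM. Control of acetyl-CoA carboxylase, which holds the AMP-activated kinase subunits, had 0 of 10 (1 higher unadjusted; median -0.005), and mitochondrial fatty acid synthesis, a separate pathway that makes lipoate, had 0 of 9 (0 unadjusted; median -0.06). Insulin-repressed and fasting genes had 0 of 10 (3 higher and 2 lower unadjusted), with a median of -0.25. Without WT 6, Gcg KO 10 and Gcg KO 12 the median was 0.15, and Fgf21 was the 1 gene that passed. Those libraries had the lowest Igfbp1, Pck1 and G6pc, which are in this list, so the shift of the median is no separate check. Insig1 and Nr1h3 were picked out after their values were seen, as were Slc25a1, Idh1, Pgd and Fgf21.

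The other elongases and desaturases held calls in the other direction. Of 13 tested, 0 were higher, 4 lower and 9 did not pass in limma (2 higher and 4 lower unadjusted), and 2 more (Elovl7 and Scd4) were below the filter. Fads1 and Fads2, the delta-5 and delta-6 desaturases of polyunsaturated fatty acids, fell from 120 ± 10.1 to 81.0 ± 13.8 RPKM (log2 fold change -0.58 ± 0.10, adjusted p = 0.00531) and from 141 ± 7.996 to 98.9 ± 11.4 RPKM (-0.52 ± 0.08, adjusted p = 0.00144), and the groups did not overlap for either. Elovl3, an elongase of saturated very long chains, fell from 380 ± 58.3 to 228 ± 65.1 RPKM (-0.77 ± 0.16, adjusted p = 0.0154), and did not pass without WT 6, Gcg KO 10 and Gcg KO 12 (-0.60, adjusted p = 0.0913). Elovl2, which lengthens polyunsaturated chains and was picked out after its values were seen, fell from 123 ± 12.2 to 92.6 ± 10.8 RPKM (-0.41 ± 0.09, adjusted p = 0.0199). The median over the 13 was -0.03. Without WT 6, Gcg KO 10 and Gcg KO 12, 3 of the 13 were lower and 1, Hacd2 (0.60), was higher.
Fatty acid activation and triglyceride synthesis had 0 of 15 higher, 1 lower and 14 that did not pass in limma (1 higher and 1 lower unadjusted; median log2 fold change 0.06), and without those 3 libraries Lpin2 was higher as well (0.44). Pnpla3, also in that list, was below the filter and not tested. It lay between 0.0344 and 0.1995 RPKM in WT livers and between 0.1123 and 1.013 in Gcg KO. Hacd2 and Lpin2 were picked out after their values were seen. The gene of the list that fell was Agpat6, the older symbol of Gpat4, a glycerol-phosphate acyltransferase of the endoplasmic reticulum, from 41.9 ± 2.21 to 30.8 ± 2.84 RPKM (-0.44 ± 0.07, adjusted p = 0.00157). The 3 calls for Fads1, Fads2 and Agpat6 held in 21 of 22 alternatives each, the exception being the exact permutation test, whose smallest adjusted p over all genes was 0.07.

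Hepatocyte markers summed to 45780 to 58430 RPKM in WT livers and 43000 to 54730 in Gcg KO, with 0 of 6 past 0.05 in limma, adjusted or unadjusted. Adipocytes also make fatty acids, and their 7 markers summed to 7.30 to 12.5 RPKM in WT livers and 12.8 to 39.6 in Gcg KO. Of these, Cfd, adipsin, rose in Gcg KO, from 0.0743 to 0.552 RPKM in WT to 2.45 to 27.9 RPKM (log2 fold change 3.63, adjusted p = 0.000786). Lep was at 0 in all 12 libraries, and Adipoq, Plin1 and Retn were at most 0.138, 0.0458 and 0.146 RPKM. Fabp4, which other cells make too, lay between 6.85 and 11.9 RPKM in WT livers and between 9.45 and 14.7 in Gcg KO (adjusted p = 0.35). Cidea, a lipid droplet protein below the filter and not tested, lay between 0 and 0.0739 RPKM in WT livers and between 0.0649 and 1.13 in Gcg KO.
Markers of endothelial cells summed to 46.7 to 62.6 RPKM in WT livers and 52.6 to 81.7 in Gcg KO, with Lyve1 higher (adjusted p = 0.0125). At an unadjusted p below 0.05 in limma, 2 of the 5 endothelial markers were higher and 0 lower. Markers of Kupffer cells, stellate cells and bile ducts had 0 calls in limma (1 bile duct marker unadjusted), with sums of 51.8 to 95.1, 69.8 to 88.6 and 2.11 to 3.52 RPKM in WT livers and 62.8 to 98.3, 70.2 to 96.6 and 2.67 to 5.04 RPKM in Gcg KO. Neutrophil markers summed to 1.49 to 64.7 RPKM in WT livers and 1.26 to 53.9 in Gcg KO, with 0 calls in limma, adjusted or unadjusted. Of the pancreatic acinar markers 0 were higher. Of those, Cela1 was lower (17.7 to 24.9 RPKM in WT livers, 11.48 to 20.03 in Gcg KO, adjusted p = 0.0179), and Cpa1, Prss2 and Pnlip were at 0 in every library. The part of these cells in the differences among the 10 genes was not tested.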

How the data were processed

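The authors deposited 1 table of RPKM values (reads scaled to gene length and library depth) for 24475 genes in 12 libraries. Reads were handled with CASAVA 1.8.2 and FastQC on mouse build GRCm38, per the submitters' processing notes, and the libraries were strand-specific, per the labels' protocols. No aligner, counting tool or annotation is named, which is thus not given in the sources used here. Each library held an estimated 10300000 to 15000000 reads, read from the smallest step of RPKM in genes with 1 transcript.

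Genes with a mean of at least 0.5 RPKM (11347) were compared on log2(RPKM + 0.5) with limma 3.58.1 in R 4.3.3. The fit used its mean-variance trend, held no covariate, and gave two-sided p-values that were adjusted over all of these genes (Benjamini-Hochberg), with 0.05 as the threshold. Every adjusted p is from that test unless another is named. Fold changes are Gcg KO over WT on that scale, which understates changes of low genes. Ratios within gene families were tested by exact permutation of the labels (924 arrangements, two-sided, smallest possible p 0.00216). The procedure was tested on simulated data. Members and lists (162 entries, all found, 3 through older symbols) were chosen with earlier results of these data known. Named genes were the 10, up to 3 called genes of each list, those most and least like the mean of the 10, the ratio partners, and Igfbp1, Pck1 and G6pc; others are said to have been picked out later. Alternatives were other pseudocounts (0.1 and 1), filters (none and 2 RPKM), scalings, no trend, library weights, the permutation test and libraries left out.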

Additional observations from a re-analysis of the deposited data

Results flagged for a closer look

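Within a group of 6, a library was singled out where its gap to the next value exceeded Dixon's 95% critical value for 6 samples, as a share of the group's range. This was checked for 68 sets of 6 values and held for 8. Chance gives about 1 in 20 for sets chosen without regard to their values. The 68 include genes picked by their variation over these same libraries, which gave most of the 8, so the count cannot be read against that rate. Among the fatty acid synthesis genes these were Me1 in Gcg KO 11, at 42.65 RPKM against 80.87 to 99.96 in the other 5 Gcg KO libraries, and Srebf1 in Gcg KO 8, at 74.85 RPKM against 28.93 to 45.13. The log2 ratio of Mlxipl to Mlxip in Gcg KO 11 was 4.804 against 5.239 to 5.394.

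The other 5 were genes chosen for likeness to the 10. Gcg KO 11 had 7.484 RPKM of Ubqln4 (others 9.81 to 11.14), 9469 RPKM of Apoa1 (6195 to 7350), 1.738 RPKM of Hpse (1.005 to 1.195) and 19.68 RPKM of Avpr1a (9.989 to 12.46). WT 4 had 1.792 RPKM of Adarb1 (others 2.104 to 2.274). Since those genes were picked by their variation over the same libraries, their values are not separate evidence that Gcg KO 11 or WT 4 stands apart.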

How the results depend on the processing

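The number of the 10 genes that passed as higher in Gcg KO (2) was 0 without the filter on low values, in the exact permutation test and without WT 6, Gcg KO 10 and Gcg KO 12, was 1 without the mean-variance trend and 3 with library weights, and ranged from 0 to 2 when each library was left out in turn. Their median log2 fold change (0.319) ranged from 0.223 to 0.46 when each library was left out. Srebf1 turned to 0.0275 without those 3 libraries and ranged from -0.208 to 0.0633 with 1 library left out. Igfbp1 (main value -0.28) turned to 0.54 without those 3, which were the lowest in Igfbp1 itself, so that turn is no separate check. Me1 passed in 10 of 22 alternatives (adjusted p 0.00881 to 0.115), Acaca in 8 (0.0119 to 0.128), and Pklr in 12 (0.0114 to 0.131). Over all tested genes, 221 higher and 218 lower became 0 and 0 in the exact permutation test (1749 at unadjusted p below 0.05), 128 were higher without those 3 libraries, 136 higher and 141 lower without WT 3, and 142 higher without Gcg KO 9. The exact permutation test could call no gene, since its smallest adjusted p was 0.07. No paired analysis was possible because the labels give no litter, batch or other link between a WT and a Gcg KO library. The libraries are only numbered, 1 to 6 and 7 to 12. At 10300000 to 15000000 reads, depth limits low genes more than these 10.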
